A study of Homo sapiens with 6 samples.

Results

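GREM1 and 9 partners of the bone morphogenetic protein (BMP) pathway were described in A549 cells with and without extra APEX1. The set held the secreted antagonists GREM1, NOG and FST, the ligands BMP2 and BMP4, the receptors BMPR1A and BMPR2, and the target genes ID1, ID2 and ID3, 10 of the 32192 genes in the count table. GREM1 was chosen by the contrast described here, because it was 1 of 4 genes called higher in APEX1-OE when a term for the main split among the libraries was added to the test, and the other 9 were chosen as its pathway partners. The differences between the conditions are therefore given for these genes as a description, with no p for a single gene.

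The A549 cells are an established line of human lung adenocarcinoma. The APEX1-OE cells were transiently transfected with a plasmid that carries APEX1, a DNA repair and redox protein, in the pIRES-hrGFP-1a vector, and the Ctrl cells with a control plasmid. RNA-seq was run on 3 libraries of each, numbered 1 to 3, to ask which genes change with APEX1 overexpression. Nothing in the labels says that the libraries came from separate cultures, so a test over them measures only the spread between these libraries, which may be technical.

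BMP ligands are secreted proteins that bring type I and type II serine/threonine kinase receptors together at the cell surface. The activated receptors phosphorylate SMAD proteins, which enter the nucleus with SMAD4 and switch on target genes, among which the ID genes respond fast. Antagonists such as gremlin and noggin bind the ligands outside the cell and keep them from the receptors, and the pathway is known for its part in branching of the embryonic lung and in remodelling of the adult lung.

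Total counts per library lay between 28131955 and 41009197. APEX1 itself stood at 618, 680.3 and 768 FPKM (fragments scaled to transcript length and to the mapped reads of the library) in APEX1-OE libraries 1 to 3 and at 129, 126 and 124 in Ctrl libraries 1 to 3, so the transfected gene matched the labels in each library (log2 fold change 2.42, SE 0.171, adjusted p = 0.00809 by edgeR's quasi-likelihood test). The keratins KRT8 and KRT18 of epithelial cells averaged 3046 and 2464 FPKM over the 6 libraries, while the epithelial adhesion gene EPCAM averaged only 0.342. Of the other cell types, 8 fibroblast markers summed to 3.72 to 5.64 FPKM in APEX1-OE and 4.55 to 5.76 in Ctrl, with THY1 the most at 3.93. Endothelial markers summed to 0.03 to 0.06 and 0.04 to 0.05. Haematopoietic markers summed to 2.7 to 4.24 and 3.5 to 4.65, with CD14 the most at a mean of 2.435, then CD68 at 1.29.

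The libraries split in a way that the conditions did not explain. CPM here are counts scaled to the library total times its TMM normalization factor. The first principal component of log2 CPM held 72.6% of the variance. It put APEX1-OE library 1 with Ctrl libraries 1 and 2, here called the low side, apart from APEX1-OE libraries 2 and 3 with Ctrl library 3, the high side. The TMM factors were 0.909, 0.956 and 0.958 on the low side and 1.036, 1.056 and 1.097 on the high side. Side differences and orders in CPM and in FPKM can therefore differ. The sides were set from all genes of these libraries, the 10 genes included, so differences between them carry no test either. The CPM of 35.5% of the 16971 tested genes lay higher in the 3 high side libraries than in the 3 low side libraries, and that of 30.9% lay lower. Because the high side held 2 APEX1-OE libraries and 1 Ctrl library, the difference between the conditions is given below also within the sides for the 10 genes.

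Promoter sequence is shown for GREM1 and FST, the antagonists that stood higher in APEX1-OE on both sides, and for ID1 and ID3, the target genes with by far the most RNA. Each is the 250 bases before an annotated start, 5′ to 3′ on the strand of the gene, from RefSeq on GRCh38.p14. GREM1 is at chr15:32717754-32718003 on the plus strand, FST at chr5:53480379-53480628 on the plus strand, ID1 at chr20:31605039-31605288 on the plus strand and ID3 at chr1:23559502-23559751 on the minus strand. Capitals mark 3 motifs, each searched on both strands. The CCAAT box was searched as CCAAT and its reverse complement. The TATA box was searched as TATAAA and its reverse complement. The SMAD motif, a GC-rich sequence known to bind SMAD proteins, was searched as GGCGCC, which reads alike on both strands.
GREM1: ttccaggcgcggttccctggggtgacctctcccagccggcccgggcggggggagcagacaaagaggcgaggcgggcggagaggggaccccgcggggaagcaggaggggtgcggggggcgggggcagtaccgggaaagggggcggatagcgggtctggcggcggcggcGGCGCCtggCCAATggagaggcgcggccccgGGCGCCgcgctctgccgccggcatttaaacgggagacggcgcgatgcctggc
FST: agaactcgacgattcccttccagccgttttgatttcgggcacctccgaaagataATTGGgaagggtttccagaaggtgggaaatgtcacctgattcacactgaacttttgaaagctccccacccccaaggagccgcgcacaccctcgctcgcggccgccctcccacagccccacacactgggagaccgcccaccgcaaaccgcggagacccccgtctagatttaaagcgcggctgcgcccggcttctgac
ID1: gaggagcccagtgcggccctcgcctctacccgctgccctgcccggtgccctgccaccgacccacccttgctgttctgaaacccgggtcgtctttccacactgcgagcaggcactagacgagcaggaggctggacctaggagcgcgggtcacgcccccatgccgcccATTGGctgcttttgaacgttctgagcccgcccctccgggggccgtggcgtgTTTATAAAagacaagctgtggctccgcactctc
ID3: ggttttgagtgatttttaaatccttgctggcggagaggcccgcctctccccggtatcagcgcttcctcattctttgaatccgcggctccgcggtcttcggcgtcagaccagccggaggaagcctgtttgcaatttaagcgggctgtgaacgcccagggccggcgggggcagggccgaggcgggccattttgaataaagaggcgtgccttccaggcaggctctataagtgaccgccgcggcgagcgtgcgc

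The GREM1 window shown held 1 CCAAT box and 2 SMAD motifs and had a GC content of 76.8%. A second GREM1 window, not shown, at chr15:32718234-32718483 with a GC content of 66.0%, held no CCAAT box, TATA box or SMAD motif. The FST window, with a GC content of 60.0%, held 1 CCAAT box, on the other strand. The ID1 window, with a GC content of 66.0%, held 1 CCAAT box and 2 TATA box matches that overlap each other. The ID3 window, with a GC content of 62.0%, held none of these letters. Among all 35116 promoter windows of the same length, 32.0% held the CCAAT box, 10.7% the TATA box and 16.4% the SMAD motif. The AP-1 motif TGACTCA, searched with its reverse complement and of interest because the redox function of APEX1 is known to act on AP-1, was in 4.20% of all windows and in 0 of the 11 windows of 8 of the 10 genes. NOG and BMP2 had no entry.

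Among the 10 genes there was little RNA for the antagonists, ligands and receptors and much for ID1 and ID3. Mean FPKM over the 6 libraries, a level per transcript length, was 313 for ID3 and 234 for ID1, then 8.11 for BMP4, 3.32 for ID2, 2.05 for BMP2, 1.99 for BMPR2, 1.49 for BMPR1A, 0.943 for GREM1, 0.858 for FST and 0.488 for NOG. ID3 ranked 171 and ID1 ranked 211 by mean FPKM among 31951 genes, whereas GREM1 ranked 11798. The ranges over the libraries of ID1 and BMP4, of BMP4 and ID2 and of FST and NOG did not overlap, and those of the other neighbours in this order did. GREM1 and FST changed places between libraries, with GREM1 above FST in the 3 high side libraries and below it in the 3 low side libraries, and so did BMP2 and BMPR2, with BMPR2 above BMP2 on the high side.

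**Figure D1:**
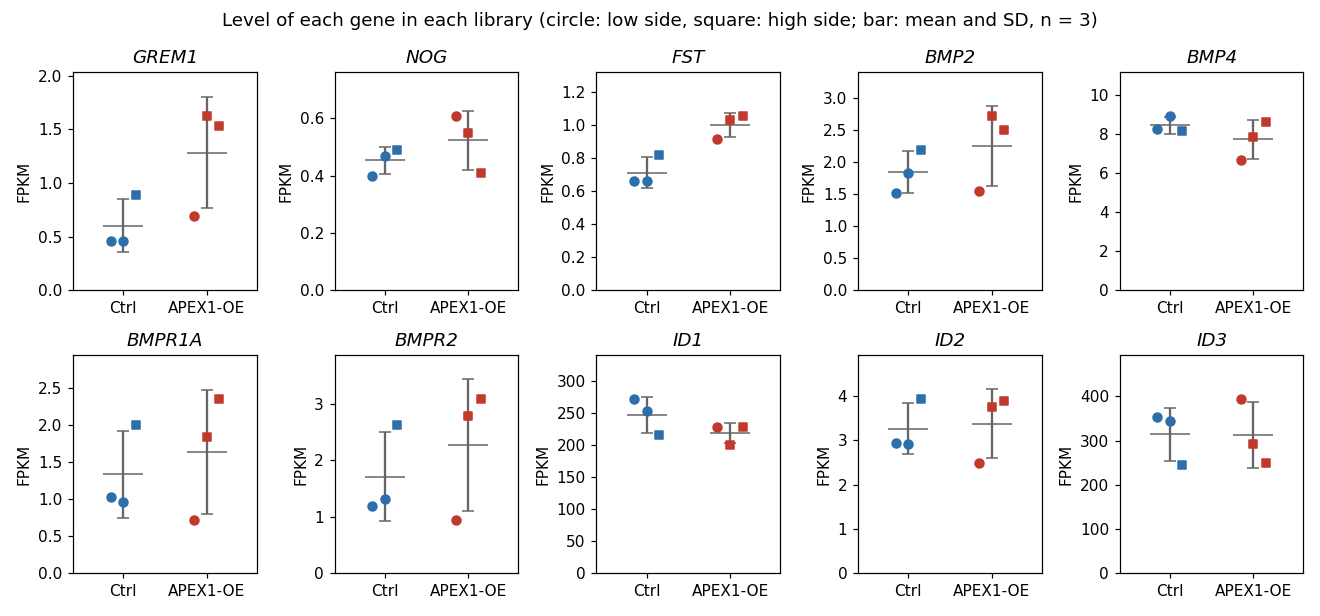
FPKM of the 10 genes (1 panel each, own axis from 0) in the 3 Ctrl and 3 APEX1-OE libraries, with circles for the low side, squares for the high side, and lines for the mean and SD. The GREM1 panel has its highest points in APEX1-OE libraries 2 and 3 at 1.63 and 1.53, and the receptor panels split by side rather than by condition.

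GREM1 (ENSG00000166923.10, chr15:32718004-32745106, plus strand) encodes gremlin 1, which binds BMP2 and BMP4 and is known mainly from stromal cells. It stood at 0.69, 1.63 and 1.53 FPKM in APEX1-OE libraries 1 to 3, and at 0.46, 0.46 and 0.89 in Ctrl libraries 1 to 3. The groups overlapped, since APEX1-OE library 1 lay below Ctrl library 3, and the lowest values were those of Ctrl libraries 1 and 2. APEX1-OE averaged 1.28 ± 0.516 and Ctrl 0.603 ± 0.248 FPKM (SD, n = 3 each), a ratio of 2.13. These levels rested on 231 to 1179 counts per library, so counting error was small beside the spread between libraries. Its log2 fold change of 1.05 (SE 0.354) was the largest of the 10 genes and of the 43 tested BMP pathway genes. GREM1 was chosen for being higher in APEX1-OE, so this rank is no separate result.

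Within the sides the GREM1 difference was kept in direction. On the low side APEX1-OE library 1 lay above both Ctrl libraries (log2 ratio of CPM 0.69), and on the high side both APEX1-OE libraries lay above Ctrl library 3 (0.82). With the library side as a term the log2 fold change was 0.76 and its SE fell to 0.116. GREM1 was chosen by its call in this fit, so the direction within the sides and the small SE are no separate result. In the same fit GREM1 differed by about as much between the sides, with a log2 fold change of 0.87 (SE 0.116) from low to high. Mean FPKM was 0.537 on the low side and 1.35 on the high side, not adjusted for the condition.

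The antisense gene GREM1-AS1 (ENSG00000259721.1, chr15:32717270-32719007, minus strand) overlaps the start of GREM1. It held 27, 34 and 14 counts in APEX1-OE and 14, 16 and 14 in Ctrl, against at least 231 for GREM1. The libraries were made with a stranded kit, but no source used here says whether counting used the strand, so reads of this overlap cannot be assigned with certainty.

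FST (ENSG00000134363.11, chr5:53480626-53487134, plus strand) encodes follistatin, which binds activins most tightly and some BMPs as well. FST stood at 0.92, 1.03 and 1.06 FPKM in APEX1-OE and at 0.66, 0.66 and 0.82 in Ctrl. It was the 1 gene of the 10 in which each APEX1-OE library exceeded each Ctrl library in CPM, an order found in 1.38% of the tested genes, and the reverse order, found in 2.01%, was seen in none of the 10. The mean was 1.00 ± 0.0737 (SD, n = 3) against 0.713 ± 0.0924 (SD, n = 3), a ratio of 1.41, and the log2 fold change was 0.47 (SE 0.213). In the fit that held both the side and the condition, FST hardly differed between the sides (log2 fold change 0.03, SE 0.177), unlike GREM1. The fold change between the conditions in that fit was 0.46 (SE 0.178). Mean FPKM of FST, not adjusted for the condition and without TMM factors, was 0.747 on the low side and 0.97 on the high side. How little FST differed between the sides thus depends on the measure. The log2 ratio was 0.58 on the low side and 0.35 on the high side, on 63 to 142 counts per library.

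NOG (ENSG00000183691.4, chr17:56593699-56595611, plus strand) encodes noggin, an antagonist with high affinity for BMP2 and BMP4. It stood at 0.61, 0.55 and 0.41 FPKM in APEX1-OE and at 0.40, 0.47 and 0.49 in Ctrl, and the groups overlapped, with APEX1-OE libraries 1 and 2 the highest and Ctrl library 1 the lowest. The log2 fold change of 0.20 was smaller than its SE of 0.287. NOG had the fewest counts of the set, 26 to 52 per library, and a count of 26 has an exact Poisson 95% interval of 17.0 to 38.1, so a difference of this size was not detectable at this depth. That interval covers counting error only. Within the sides the log2 ratio of CPM for NOG was 0.59 on the low side and -0.02 on the high side.

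Summed FPKM of the 3 antagonists was set against that of the 2 ligands in each library. The ratio was 0.269, 0.304 and 0.269 in APEX1-OE and 0.155, 0.147 and 0.213 in Ctrl. The lowest APEX1-OE library exceeded the highest Ctrl library, and in every library these 3 antagonists had less RNA than these 2 ligands. The ratio takes in GREM1, which was chosen for being higher, so its order is no separate result. GREM1 gave 31.1%, 50.8% and 51.0% of the FPKM of these 3 antagonists in APEX1-OE and 30.3%, 28.9% and 40.5% in Ctrl, with the larger shares in the high side libraries of each condition. Over wider lists of BMP antagonists and ligands the order was reversed. The wider antagonist list summed to 125.29 to 153.38 FPKM in APEX1-OE and 110.86 to 142.71 in Ctrl. The wider ligand list summed to 10.35 to 15.22 and 12.59 to 13.82.

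BMP4 (ENSG00000125378.15, chr14:53949736-53958761, minus strand), a ligand with a known role in lung bud growth, was the ligand with the most RNA. BMP4 stood at 6.71, 7.85 and 8.66 FPKM in APEX1-OE and at 8.30, 8.97 and 8.16 in Ctrl. The groups overlapped, with APEX1-OE library 1 the lowest of all. The log2 fold change was -0.16 (SE 0.204), with -0.25 on the low side and 0.0084 on the high side.

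BMP2 (ENSG00000125845.6, chr20:6767686-6780246, plus strand), a close relative of BMP4 that binds the same receptors, stood at 1.54, 2.72 and 2.49 FPKM in APEX1-OE and at 1.52, 1.83 and 2.18 in Ctrl. APEX1-OE library 1 was level with Ctrl library 1, and the other APEX1-OE libraries were the highest. BMP2 had a log2 fold change of 0.26 (SE 0.249), or 0.13 (SE 0.145) with the library side as a term. The log2 ratio of CPM was -0.0082 on the low side and 0.25 on the high side. BMP4 exceeded BMP2 in all 6 libraries, by 4.36, 2.89 and 3.48 times in APEX1-OE and 5.46, 4.90 and 3.74 times in Ctrl.

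The receptor genes followed the library side more than the condition. BMPR2 (ENSG00000204217.12, chr2:202376327-202567751, plus strand), the type II receptor, stood at 0.94, 2.78 and 3.09 FPKM in APEX1-OE and at 1.20, 1.31 and 2.62 in Ctrl. BMPR1A (ENSG00000107779.11, chr10:86756596-86932825, plus strand), a type I receptor for BMP2 and BMP4, stood at 0.72, 1.84 and 2.36 FPKM in APEX1-OE and at 1.03, 0.97 and 2.01 in Ctrl. In both, APEX1-OE library 1 was the lowest of all libraries and APEX1-OE library 3 the highest, so the APEX1-OE group spanned the Ctrl group.

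From the low to the high side mean FPKM, not adjusted for the condition, went from 1.15 to 2.83 for BMPR2 and from 0.907 to 2.07 for BMPR1A. In the fit that held both the side and the condition, the log2 fold changes between the sides were 1.14 (SE 0.125) and 1.06 (SE 0.135). Between the conditions the log2 fold changes were 0.37 (SE 0.424) for BMPR2 and 0.25 (SE 0.409) for BMPR1A, both smaller than their SE. With the library side as a term they were -0.06 (SE 0.124) and -0.14 (SE 0.134). The within-side log2 ratios were -0.31 and 0.16 for BMPR2 and -0.37 and 0.05 for BMPR1A, of opposite sign on the low and the high side.

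ID1, ID2 and ID3 encode helix-loop-helix proteins without a DNA-binding region, which pair with E proteins and keep them off DNA. ID1 (ENSG00000125968.8, chr20:31605283-31606515, plus strand) stood at 229, 201.0 and 228 FPKM in APEX1-OE and at 273, 254 and 217 in Ctrl. Ctrl libraries 1 and 2 were the highest, but Ctrl library 3 lay below APEX1-OE libraries 1 and 3. ID1 had a log2 fold change of -0.19 (SE 0.205), or -0.06 (SE 0.0855) with the side as a term, and -0.09 and -0.02 within the low and the high side.

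ID3 (ENSG00000117318.8, chr1:23557926-23559501, minus strand) stood at 394, 293 and 249 FPKM in APEX1-OE and at 354, 344 and 246 in Ctrl. The means of 312 ± 74.4 and 315 ± 59.8 (SD, n = 3 each) lay well within the spread of either group. The log2 fold change was -0.0082 (SE 0.295), while with the library side as a term it was 0.21 (SE 0.0923), with 0.29 on the low side and 0.14 on the high side. ID3 exceeded ID1 by 1.72, 1.46 and 1.09 times in APEX1-OE and 1.30, 1.36 and 1.13 times in Ctrl.

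ID2 (ENSG00000115738.9, chr2:8678845-8684461, plus strand) stood at 2.49, 3.75 and 3.88 FPKM in APEX1-OE and at 2.93, 2.92 and 3.93 in Ctrl, with the high side libraries above the low side libraries in both conditions. Its log2 fold change between the conditions was 0.02 (SE 0.230), with log2 ratios of CPM of -0.12 on the low side and -0.05 on the high side. ID2 made up 0.398% to 0.806% of the summed FPKM of the ID genes in APEX1-OE and 0.465% to 0.843% in Ctrl, so nearly all ID RNA came from ID1 and ID3. The antisense gene ID2-AS1 overlaps ID2 (chr2:8666636-8681864, minus strand) and held 10 to 31 counts per library, against at least 194 for ID2.

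**Figure D2:**
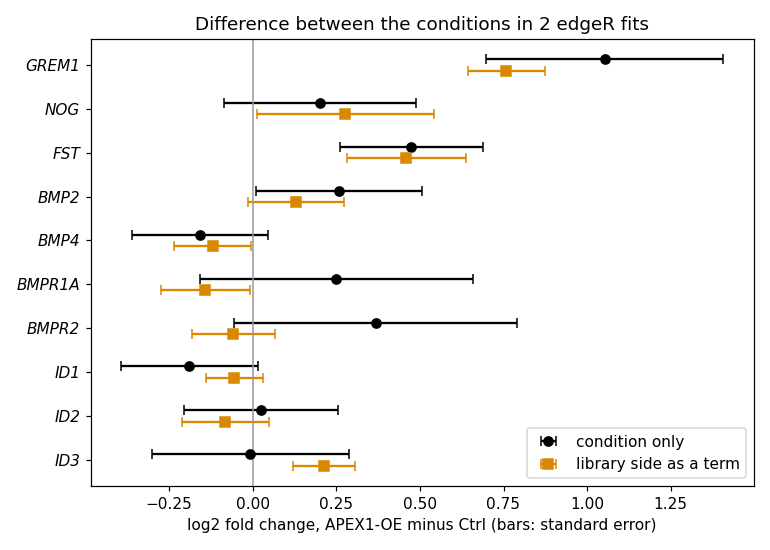
Log2 fold change of APEX1-OE minus Ctrl for the 10 genes from edgeR with the condition alone (circles) and with the library side as a further term (squares), with standard errors. GREM1 stays right of zero at 1.05 and 0.76, FST at 0.47 and 0.46, and the receptors shift from 0.37 and 0.25 to -0.06 and -0.14.

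Across the set, edgeR's quasi-likelihood test called 0 of the 10 genes at an adjusted p under 0.05, where it called 1 of all 16971 tested genes, or 0.00589%. At an unadjusted p under 0.05 it counted 118 of all genes and 1 of the 10, the gene by which the set was chosen, so nothing is read from that count. DESeq2 called 0 of the 10. With the library side as a term 4 genes were called, or 0.0236%, of which GREM1 was 1 by the choice of the set. The median log2 fold change of the 10 genes was 0.23, against 0.03 over all tested genes, and it was 0.04 with the side as a term. A log2 fold change above 0 was found for 7 of the 10 genes and for 9759 of all tested genes. ID2 and ID3 stood so close to zero that their sign changed with the normalization, to -0.02 for ID2 with upper-quartile factors and to 0.01 for ID3 with the size factors of DESeq2.

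Between the sides, the high side libraries lay above the low side libraries for 5 of the 10 genes (GREM1, BMP2, BMPR1A, BMPR2 and ID2). They lay below them for 2 (ID1 and ID3), while NOG, FST and BMP4 overlapped. Of all tested genes, 35.5% were above in this way and 30.9% below. Within both sides APEX1-OE stood above Ctrl for GREM1, FST and ID3 and below it for ID1 and ID2, and the sign differed between the sides for the other 5. The same 3 outcomes made up 33.4%, 21.8% and 44.7% of all tested genes, so the set was divided much like the genes at large.

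**Figure D3:**
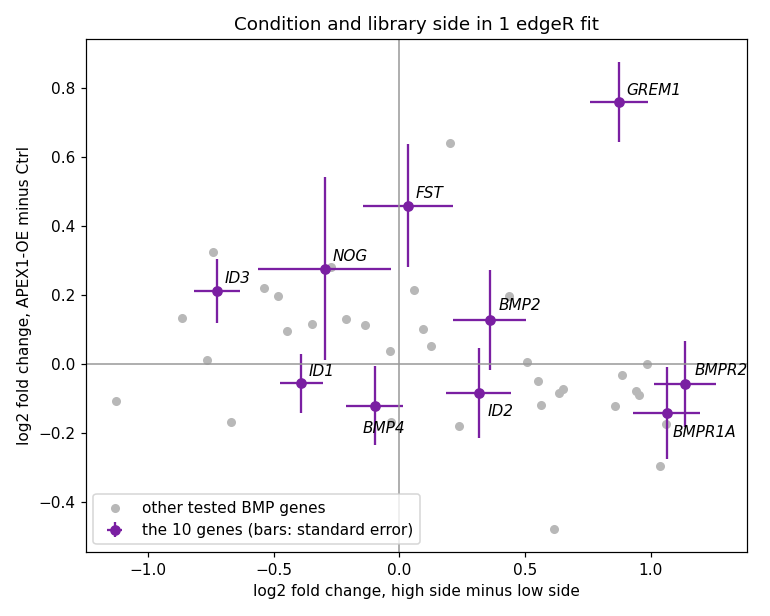
Log2 fold change of APEX1-OE minus Ctrl against log2 fold change of high side minus low side, both from 1 edgeR fit, for the 10 genes (purple, with standard errors) and the other tested BMP pathway genes (grey). BMPR1A and BMPR2 lie far right near zero on the vertical axis, ID1 and ID3 lie left, FST lies above zero near the vertical line, and GREM1 lies apart at 0.87 and 0.76.

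The side difference went with the GC content of the transcript. Tested genes were put in 5 equal groups by the GC content of their canonical transcript, and the median log2 fold change from low to high side was 0.86, 0.53, 0.05, -0.37 and -0.65 from the fewest to the most G and C. GREM1, BMPR1A and BMPR2, at 39.8%, 39.4% and 39.1%, were in the group with the lowest GC content, and ID1 and ID3, at 57.9% and 56.7%, in the group next to the highest. In the first of these groups GREM1 (0.87) was close to the median of 0.86, and BMPR1A (1.06) and BMPR2 (1.14) lay above it. Around the median of -0.37, ID1 (-0.39) was close, ID3 (-0.73) lay below and BMP4 (-0.10) above. FST (0.03) and ID2 (0.31) lay below their median of 0.53, while BMP2 (0.36) lay above 0.05 and NOG (-0.30) above -0.65. Between the conditions the medians of the same groups were 0.27, 0.08, -0.0072, -0.03 and -0.02, so the fold change of 1.05 for GREM1 stands beside a median of 0.27 for transcripts of like composition. The part of GC content in the GREM1 difference was not tested.

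**Figure D4:**
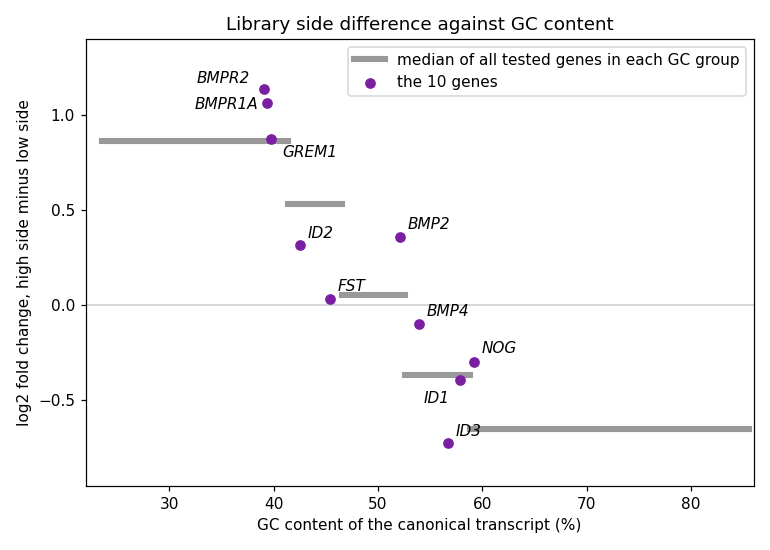
Log2 fold change of high side minus low side against the GC content of the canonical transcript in percent, for the 10 genes (points) and the median of all tested genes in each of 5 groups by GC content (grey bars, which span the GC range of the group). The medians go from 0.86 to -0.65, with the receptors above the first bar at 1.14 and 1.06 and ID3 lowest at -0.73.

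The wider pathway was covered by 61 listed genes, of which 54 were in the count table and 43 were tested. None of the 43 was called by edgeR's quasi-likelihood test or by DESeq2, and the count at an unadjusted p under 0.05 was 1, again the gene the set was chosen by. The log2 fold change lay above 0 for 31 of 43 and for 9759 of all 16971 tested genes, with a median over the 43 of 0.10 and a range of -0.54 to 1.05. With the library side as a term it lay above 0 for 23 of 43 and for 8750 of all tested genes, with medians of 0.0054 and 0.0081. By role and with the condition alone it was above 0 for 8 of 10 antagonists, 3 of 6 ligands, 6 of 7 receptors, 2 of 4 co-receptors, 7 of 8 SMADs and regulators and 5 of 8 targets. With the side as a term these counts were 7, 3, 1, 2, 5 and 5, and the median over the 7 receptors went from 0.18 to -0.14.

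Between the sides the roles differed more, with a median log2 fold change of 1.04 over the 7 receptors and -0.44 over the 8 targets. The 3 high side libraries lay above the 3 low side libraries for 6 of the 7 receptors and for 35.5% of all tested genes. BMPR1A and BMPR2 were thus 2 among several receptors, and among many genes, with this split. SMAD5, a signal carrier of the pathway, showed it too, at 1.87, 4.92 and 5.49 FPKM in APEX1-OE and 2.44, 2.32 and 4.47 in Ctrl. Its log2 fold change between the conditions was 0.37 (SE 0.378), the largest of the other pathway genes with a mean FPKM of at least 1, followed by SMURF2, a ubiquitin ligase, at 0.30 (SE 0.366) and TWSG1, a secreted modulator, at 0.27 (SE 0.389). With the library side as a term these were 0.00097, -0.03 and -0.09.

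The most negative values among the other pathway genes at this level were those of ATOH8, BMP8B and NBL1. ATOH8, a transcription factor gene among the targets, stood at 9.01, 6.34 and 5.76 FPKM in APEX1-OE and 10.4, 9.23 and 7.59 in Ctrl, with overlap (log2 fold change -0.36, SE 0.305, and -0.17 with the side as a term). The ligand BMP8B, at -0.18 (SE 0.212), and the antagonist NBL1, at -0.16 (SE 0.353), differed by less than their SE. In CPM each APEX1-OE library lay below each Ctrl library for BMP8B, 1 of the 43 pathway genes, an order found in 2.01% of all tested genes. In FPKM its groups overlapped, with 1.18 in APEX1-OE library 3 above 1.17 in Ctrl library 3. NBL1 overlapped in CPM, and with the library side as a term it was 0.13 (SE 0.124). None of these genes passed the test, with an adjusted p of 1.0 each from edgeR.

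BMP4 led the ligands and ID3 the targets, but in the other roles genes outside the set had the most RNA. FSTL3, a follistatin-like antagonist, averaged 100.3 FPKM, far above GREM1, and differed by 0.10 (SE 0.302) between the conditions. ACVR1, a type I receptor, averaged 3.61, the pseudoreceptor BAMBI 13.4, and the ubiquitin ligase SMURF1 8.51, with log2 fold changes of 0.18, 0.03 and 0.13. Of the remaining ligands BMP6 was highest at 1.67.

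**Figure D5:**
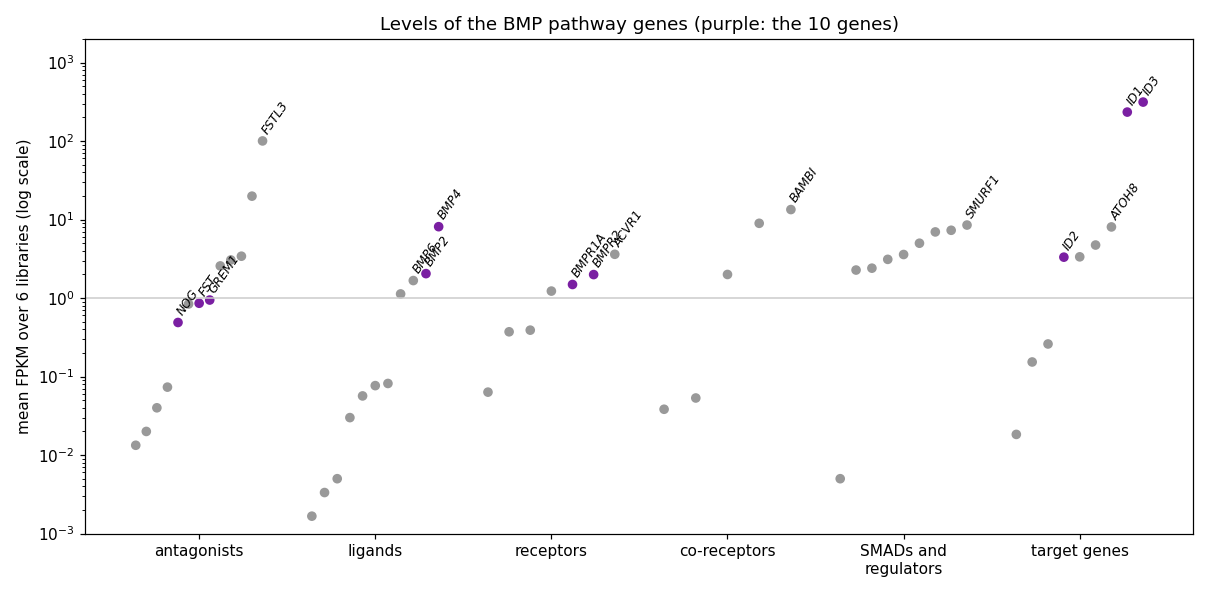
Mean FPKM over the 6 libraries (log axis) of the BMP pathway genes by role, with the 10 genes in purple and named together with the highest other gene of each role. ID3 and ID1 lie at 313 and 234, FSTL3 at 100.3, and GREM1, FST and NOG lie just below the line at 1.

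The genes whose log2 CPM went most like that of GREM1 over the 6 libraries were RP11-119F7.5 (Pearson r = 0.992), ARRDC4 (0.992), ZNF845 (0.991), ETS1 (0.991) and ZFP36L1 (0.989), out of 16971 genes. RP11-119F7.5 rested on only 6 to 22 counts per library. ETS1, a transcription factor, stood at 2.48, 5.50 and 4.63 FPKM in APEX1-OE and 1.82, 1.72 and 3.48 in Ctrl. ZFP36L1, an RNA-binding protein that promotes mRNA decay, stood at 28.2, 41.5 and 43.3 in APEX1-OE and 25.0, 25.9 and 33.3 in Ctrl. In each, as in GREM1, Ctrl libraries 1 and 2 were lowest and APEX1-OE libraries 2 and 3 highest. Within the set, r with GREM1 was 0.868 for BMP2, 0.795 for FST and for BMPR2, 0.725 for BMPR1A, 0.669 for ID2, -0.0547 for NOG, -0.626 for ID3, -0.735 for BMP4 and -0.888 for ID1. These 6 points share the library sides and are a description of likeness only.

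A smaller share of cells making a transcript and less of it in each cell cannot be told apart in such bulk libraries.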

How the data were processed

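RNA-seq libraries of A549 cells were grouped by the sample labels, 3 APEX1-OE and 3 Ctrl. Reads were trimmed by the authors (FASTX-Toolkit), who aligned them to GRCh38 with tophat2. The deposited counts per gene are raw, and the authors made the deposited FPKM from the uniquely mapped reads. The tool that counted, the gene annotation and the strand setting were not given in the sources used here. Counts per gene were kept by edgeR's filterByExpr (minimum count 10, minimum total 15), given TMM factors and tested by the robust quasi-likelihood test over all 16971 genes (R 4.3.3, edgeR 4.0.16), with Benjamini-Hochberg adjustment at 0.05. Log2 CPM used a prior count of 2. Total counts of 28131955 to 41009197 set the precision, and each pair of libraries differed by more than sampling noise (closest chi-square per degree of freedom 3.63). The fit was also run on simulated counts with the same dispersion for every gene and no split into library sides. That run cannot say how the fit behaves under the split seen here.

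The members and gene lists were chosen with earlier results of these data known. Other genes were named if called, if highest in their role, if among the 3 most positive or 3 most negative fold changes at a mean FPKM of at least 1, or if among the 5 most like GREM1. Transcript GC came from the reference annotation and was available for 98.7% of tested genes. Alternatives were DESeq2 1.42.0, other normalizations, no filter, limma 3.58.1 on log2 FPKM, a library side term, a replicate block and leaving out each library. Splicing, qPCR and cell assays were not analysed here.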

Additional observations from a re-analysis of the deposited data

How the results depend on the processing

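The number of genes called was 1 (APEX1) with the condition alone. It was 10 with no filter on low counts, 2 with the replicate block, 4 with the library side as a term and 8 with the side and the replicate block together, a setting chosen after seeing the data, and it was 0 to 1 when 1 library was left out, with 0 without APEX1-OE replicate 2 or 3 or Ctrl replicate 1 or 2. The cause was not tested. BMP pathway genes called were 1, GREM1, with the side as a term and 0 in each other setting run. Same-numbered libraries deviated together for numbers 1 and 3 but not for number 2 (r = 0.607, -0.521 and 0.700 for numbers 1 to 3), so the numbers were not taken to pair them, and not every library correlated best with its own number. Over the settings GREM1 stayed between 0.49 (log2(FPKM + 1), whose pseudocount shrinks low genes) and 1.38 (without Ctrl replicate 3), and was 0.86 without APEX1-OE replicate 2. FST stayed between 0.23 and 0.58. ID1 stayed between -0.33 and -0.02. BMPR1A ran from -0.37 to 0.60, BMPR2 from -0.31 to 0.74, ID3 from -0.34 (without APEX1-OE replicate 1) to 0.29, ID2 from -0.12 to 0.12, NOG from -0.02 to 0.59, BMP2 from -0.0082 to 0.38 and BMP4 from -0.25 to 0.0084, so the sign of these 7 differed among settings. The median over the 10 genes lay between -0.05 and 0.27. The 3 libraries per condition, split unevenly between the sides, limit each fold change, and for NOG the 26 to 52 counts per library do so too.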

Other observations

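Activins and E proteins, which follistatin and the ID proteins bind, were given their own lists. INHBA, a subunit of activin A, stood at 0.08, 0.34 and 0.24 FPKM in APEX1-OE and at 0.10, 0.07 and 0.17 in Ctrl. Its log2 fold change was 0.93 (SE 0.474) on 19 to 105 counts per library. With the library side as a term the INHBA fold change was 0.53 (SE 0.287), beside 1.19 (SE 0.292) from the low to the high side. The log2 ratio of CPM was 0.13 on the low side and 0.75 on the high side. INHBB, the subunit of activin B, averaged 3.56 FPKM with a log2 fold change of -0.04. Among the E proteins TCF12 stood at 2.36, 7.92 and 7.94 FPKM in APEX1-OE and at 3.64, 3.47 and 7.45 in Ctrl, so that the high side libraries lay above the low side libraries in both conditions. TCF3 averaged 14.3 FPKM in APEX1-OE and 13.7 in Ctrl, with a log2 fold change of 0.05. None of the activin and E protein genes was called by edgeR or had an unadjusted p under 0.05.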
